A study of Bos taurus with 8 samples.

Results

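The 4 arrays that the deposited labels call housed carried plasma exosomal RNA of steers at 0, 1, 2 and 4 mo, and they were chosen by that treatment label from the 8 arrays of the series. The other 4 arrays carry the label grazing at the same months. All animals were Japanese Shorthorn cattle, and each array held 1 pool of RNA from 3 steers, so that no month of a label had a second array. By the labels, the housed cattle were kept in a free-stall barn over these months, the grazing cattle were on pasture, and 0 mo was the start. Before the start all the steers had been raised on pasture grass alone, in the barn they received freshly cut grass, and no grain was given to either group. They were young adults, with an age range given for both groups together, and were divided at random. Each group held 3 steers, so that the pools of its months came from the same animals. The question of the comparison was how the exosomal miRNAs of 1 group stood at the later months against the start. The array design measured 744 bovine miRNAs, of which 226 were detected on at least 1 of the 4 arrays and 163 on all 4. These 163 are the miRNAs whose changes are described.

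S1 Table, a supplementary table of the study, gives these arrays the name of the other feeding group. The raw columns of that table were set against the arrays, and in month order the columns headed G-1, G-2, G-3 and G-4 held 226 of 226, 185 of 185, 166 of 166 and 182 of 182 detected miRNAs within 1%. Among the columns of other arrays, none held more than 12 of an array. G stands for grazing in that table. The main text of the study goes with the columns here. It ranks miR-1260b second in the housed cattle at the start, while miR-2412 was second on the array labelled housed 0 mo. The changes below are therefore those of housed cattle by the labels and of grazing cattle by the columns, and the groups were kept as labelled.

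Exosomes are small membrane vesicles that cells release, and blood plasma holds exosomes from blood cells, vessel walls and organs. They carry miRNAs, short RNAs that bind mRNAs through a few bases near their 5′ end, the seed, and lower the yield of protein. A plasma exosome sample is thus a mixture of miRNAs of several cell types, and some of these are well known for where they are made: miR-451 and miR-144 in red cell precursors, miR-126 in endothelium, miR-223 in myeloid cells, miR-150 in mature lymphocytes, miR-122 in liver and miR-1, miR-133 and miR-206 in muscle. In a pool, fewer vesicles from a cell type and less of a miRNA in each vesicle cannot be told apart.

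The sequences shown here are those of the longest probe that the array carried for each miRNA. A probe is DNA complementary to the miRNA, so a run of C and T in the probe stands for a run of G and A in the RNA. Runs of 4 or more C or T are in capitals. The first set holds the 10 miRNAs with the lowest mean log2 change from 0 mo among those that kept 1 sign at all later months and changed by more than 2 times the error estimate at each, in order from the lowest.
miR-2412: CCCTCTCCCCacc
miR-2410: tcacaggTCCTCCTC
miR-2406: aatccagCTTCCTTCTTC
miR-2373-3p: ggCTCTTCCacgtg
miR-2295: agaaCCTTCCTCCCac
miR-3141: CCTCCTCCacccg
miR-150: acactggtacaagggt
miR-1224: CTCCaCCTCCC
miR-2407: ccagCCCTTCCCa
miR-2888: ccaaCCCCCCCa
The second set holds the 10 miRNAs with the highest mean change under the same rule, in order from the highest.
miR-199b: gaacagatagtctaaacactgg
miR-144: ctagtacatcatctatactgta
miR-215: tgtctgtcaattcataggt
miR-98: aacaatacaacttactaCCTC
miR-451: aaactcagtaatggtaacg
miR-185: tcaggaactgCCTTTCT
miR-92a: acaggccgggacaagt
let-7d: aactatgcaacctactacc
miR-103: tcatagCCCTgtacaatg
let-7c: aaccatacaacctactacc
In the first set the longest run of C or T was 6 to 11 bases in 9 probes and 2 bases in that of miR-150. In the second set it was 2 to 4 bases in 9 probes and 7 in that of miR-185. The probe of miR-2412 is placed by the array design on chromosome 3 of UMD_3.1, bases 18845860 to 18845871. That of miR-2410 lies on chromosome 29, bases 51051789 to 51051802, and that of miR-2406 on the same chromosome, bases 42859588 to 42859604. For the upper end of the list, the probe of miR-144 lies on chromosome 19, bases 20797072 to 20797092, that of miR-199b on chromosome 11, bases 98867674 to 98867694, and that of miR-215 on chromosome 16, bases 24305752 to 24305769. The exon or intron at these places is not analysed here, and the strand is not stated by the design.

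Summed over the detected miRNAs, the signal stood at 157696 at the start, then 84288, 62438 and 90951 in month order. The number of miRNAs with a detection flag was 226, 185, 166 and 182 at these months. The 4 control features whose names begin with dmr did not follow this. By the name of their kind they are RNAs added during labelling or hybridization, and whether the study added them is not given in the sources used here. The feature dmr_3 read 9497, 10620.1, 11068 and 11080.4, and dmr_6 read 7459.7, 8353, 8672 and 8613. The feature dmr_285 read 1247, 1481, 1236 and 1574, and dmr_31a read 435, 461, 416 and 466. Each of these lay between 0.956 and 1.26 times its own 0 mo value, while the summed signal lay between 0.396 and 0.577 times its own. Another kind of control feature, hur, was brighter at 0 mo, as the miRNAs were, and hur_1 read 5680, 3111, 2930.4 and 2520.3. miR-2412 alone held 21.7% of the signal at 0 mo, and without it the summed signal of the later months was 0.649, 0.477 and 0.704 times that of 0 mo. Equal amounts of total RNA were labelled for the arrays by the protocol, so the signal is a level per amount of exosomal RNA. The 4 arrays lay beside each other on 1 slide in the order of the months, so that place on the slide and month cannot be told apart.

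**Figure D1:**
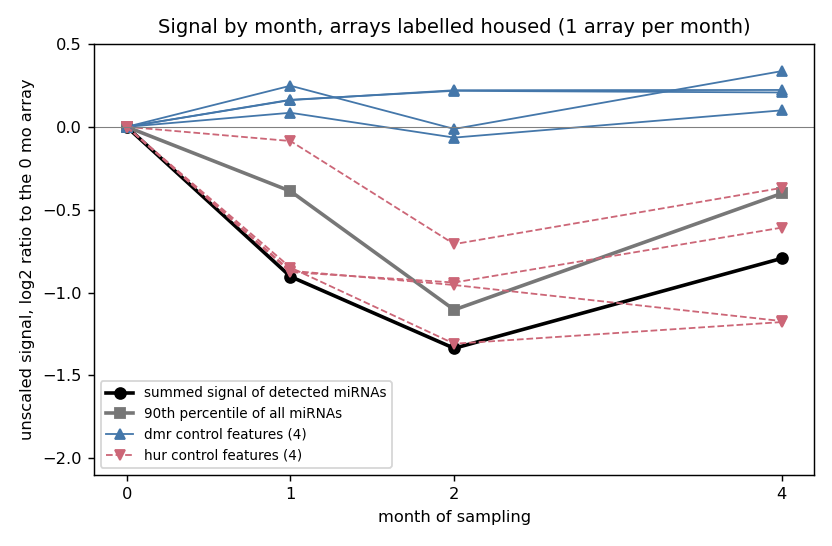
Unscaled signal at each month as a log2 ratio to the 0 mo array, on the 4 arrays labelled housed. The summed signal of the detected miRNAs (black) and the 90th percentile of all miRNAs (grey) lie below 0 at each later month, the 4 dmr control features (blue) stay between 0.956 and 1.26 times their 0 mo value, and the 4 hur control features (red) lie below 0 mo.

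For the changes, signals were first divided by an array's own 90th percentile, taken over the 744 miRNAs, which was 109, 83.2, 50.7 and 82.5. On that scale the median change of the 163 miRNAs on the log2 scale was 0.03, -0.03 and 0.04 at 1, 2 and 4 mo. Before scaling it was -0.36, -1.13 and -0.37, and 128 of the 163 miRNAs were below their 0 mo signal at all 3 later months. Of the 163, only miR-199b was above it at all 3. A rise described below is thus a rise against the bulk of the miRNAs of the same array, and a fall is a fall beyond the bulk. A miRNA was said to have risen or fallen where it changed at least 2-fold on the scaled signal. No test across months can be made with 1 array per month. The error given in brackets is the scanner software's estimate from the spots of an array, and that of a change combines both arrays. Its median for a change was 0.17, 0.18 and 0.17 at these months.

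At 1 mo, 12 of the 163 miRNAs (7.36%) had fallen and 3 (1.84%) had risen. At 2 mo, 7 (4.29%) had fallen and 2 (1.23%) had risen, and at 4 mo 11 (6.75%) had fallen and 2 (1.23%) had risen. These counts share the 0 mo array. Of the 163, 5 miRNAs (3.07%) had fallen at all 3 months, and 0 had risen at all 3. Together, 22 miRNAs passed 2-fold at 1 month or more and 141 at none. Between the later months fewer miRNAs differed by 2-fold: 4 between 1 and 2 mo, 2 between 1 and 4 mo and 5 between 2 and 4 mo, against 15, 9 and 13 between 0 mo and 1, 2 and 4 mo. The median size of the difference was 0.25, 0.16 and 0.18 among the later months, against 0.32, 0.29 and 0.29 from 0 mo. The array at 0 mo therefore stood farther from the later ones than these stood from each other, and the arrays at 1 and 4 mo were the closest pair. On the arrays labelled grazing the closest pair over 144 miRNAs by median size was 0 and 4 mo, at 0.21. The order of the months by median size was thus not shared by the labels. By miRNAs past 2-fold, 0 and 4 mo had 5 there, against 3 between 1 and 2 mo and 3 between 1 and 4 mo. The pair of 2 and 4 mo had 8, and 0 mo had 15 against 1 mo and 13 against 2 mo.

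The 5 miRNAs that had fallen at all later months were miR-2412, miR-2410, miR-2406, miR-2373-3p and miR-1224. The first 4 are miRNAs first described from cattle. The signal of miR-2412 was 34152 (2415) at the start, then 4065 (287), 3463 (245) and 3930.4 (278). The 0 mo array stood alone and the later months were close together. On the scaled signal the log2 changes were -2.68, -2.20 and -2.72, with an error of 0.14 each, a mean 5.79-fold fall. It carries 2 probes, and their mean changes were -2.53 and -2.54. The signal of miR-2410 was 109 (10.5), 16.4 (2.58), 17.9 (2.70) and 16.3 (2.57), with changes of -2.34, -1.49 and -2.33, a mean 4.16-fold fall. miR-2406 read 81.2 (8.11), 12.5 (2.16), 16.2 (2.36) and 11.5 (2.08), with changes of -2.31, -1.22 and -2.42. In both, the unscaled signals of the later months were close together, while the scaled signal was highest at 2 mo, with 0.196, 0.354 and 0.198 for miR-2410 and 0.150, 0.320 and 0.139 for miR-2406. miR-2373-3p read 113 (8.48), 27.7 (2.82), 11.9 (2.16) and 40.4 (3.53), and here the later months differed from each other, with the lowest at 2 mo. miR-1224 read 1968 (160), 736 (58.3), 433 (34.6) and 733 (59.96) and changed by -1.03, -1.08 and -1.02.

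A further 4 miRNAs of the first set fell at some of the later months. miR-2295 read 70.3 (5.35), 16.7 (2.33), 18.1 (2.37) and 14.8 (2.24), and fell at 1 and 4 mo (changes -1.69, -0.85 and -1.85). miR-3141 read 223 (15.9), 64.1 (4.97), 54.8 (4.38) and 60.8 (4.75), and also fell at 1 and 4 mo (-1.41, -0.92 and -1.47). miR-2407 did so too, with 64.4 (4.95), 21.4 (2.52), 17.3 (2.34) and 23.95 (2.62). The fourth, miR-2888, fell at 1 mo, with 645 (47.3), 208 (15.004), 187 (13.6) and 264 (18.9). In 7 of these 9 miRNAs the smallest change was the one at 2 mo, the exceptions being miR-2373-3p and miR-1224.

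miR-150, which restrains MYB and is made in mature lymphocytes, was the member of the first set with few C and T in its probe. It read 105 (8.91), 40.6 (3.93), 18.4 (2.51) and 41.6 (3.94), and it fell at 2 mo, with changes of -0.99, -1.42 and -0.94.

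Among the 163, some changed late or for 1 month. miR-6528 fell at 2 and 4 mo and not at 1 mo, with 1346 (101), 1195 (99.2), 304 (22.9) and 276 (20.8), and changes of 0.22, -1.04 and -1.89. Its 2 probes had opposite signs at 1 mo, with changes of -0.52 and 0.47, so its level at that month is not settled. They were alike at 2 mo (-1.04 each) and at 4 mo (-1.88 and -1.89). miR-2413 fell at 4 mo, with 1664 (161), 898 (86.8), 797 (77.1) and 491 (47.6), and changes of -0.50, 0.04 and -1.36. Both were among the 20 brightest at 0 mo. Outside the rule, and chosen after their values were seen, miR-2887 rose at 1 mo and miR-574 at 2 mo. miR-2887 read 20.2 (2.67), 36.6 (3.86), 6.05 (2.09) and 23.4 (2.97), with changes of 1.24, -0.64 and 0.61. miR-574 read 16.96 (2.24), 10.4 (2.15), 17.1 (2.33) and 9.05 (2.09), so that its unscaled signal was equal at 0 and 2 mo and its rise was one against the array's percentile.

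Of the second set, miR-199b and miR-144 passed 2-fold. miR-199b, which is made mostly in mesenchymal cells, read 17.4 (2.30), 21.4 (2.58), 18.3 (2.42) and 35.01 (3.31). Its changes of 0.69, 1.17 and 1.41 passed 2-fold at 2 and 4 mo. miR-144, made from 1 transcript with miR-451 during red cell formation, read 194 (13.9), 245 (17.4), 159 (11.4) and 318 (22.6), and its change passed 2-fold at 4 mo (0.72, 0.81 and 1.11). The other 8 stayed under 2-fold at each month. miR-215, of the intestine, liver and kidney, read 77.9 (6.87), 98.0 (8.56), 64.9 (5.91) and 88.2 (7.80), with changes of 0.72, 0.84 and 0.58. miR-98, a member of the let-7 family, had changes of 0.89, 0.53 and 0.55, and miR-92a, of the miR-17-92 cluster, 0.32, 0.85 and 0.47. A further pair rose at 1 mo but had errors too large for the rule, miR-204, with 8.86 (1.97) at 0 mo and 16.6 (2.36) at 1 mo, and miR-301a, with 12.3 (2.18) and 21.1 (2.84). When the arrays were scaled to the 4 dmr control features instead, the mean change stayed above 0 for miR-199b (0.30) and miR-144 (0.09) and was below 0 for the other 8 of the second set, from -0.07 for miR-215 to -0.39 for let-7c. Under that scaling all of the first set stayed below 0, as they did under the 10 other scalings and signals tried. The set was chosen for its low means, all -0.94 or lower, and a scaling by 1 factor per array shifts every mean alike. The kept sign is thus largely fixed by the choice and is not support for the falls. The size of these falls depended on the scaling and on normexp, a background correction run here with an offset. By quantiles the mean change of miR-2412 was -1.11 and it was not 2-fold lower at all 3 months, while miR-2373-3p, miR-2406 and miR-2410 were. The offset of normexp was 50 for every spot, which draws the changes of dim miRNAs towards 0. With normexp the mean change was -0.05 for miR-2406, -0.48 for miR-2410 and -0.33 for miR-2407. It was -0.42 for miR-150, -0.52 for miR-2295 and -0.75 for miR-2373-3p. Of the 5, miR-2412 alone had fallen at all 3 months with normexp.

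**Figure D2:**
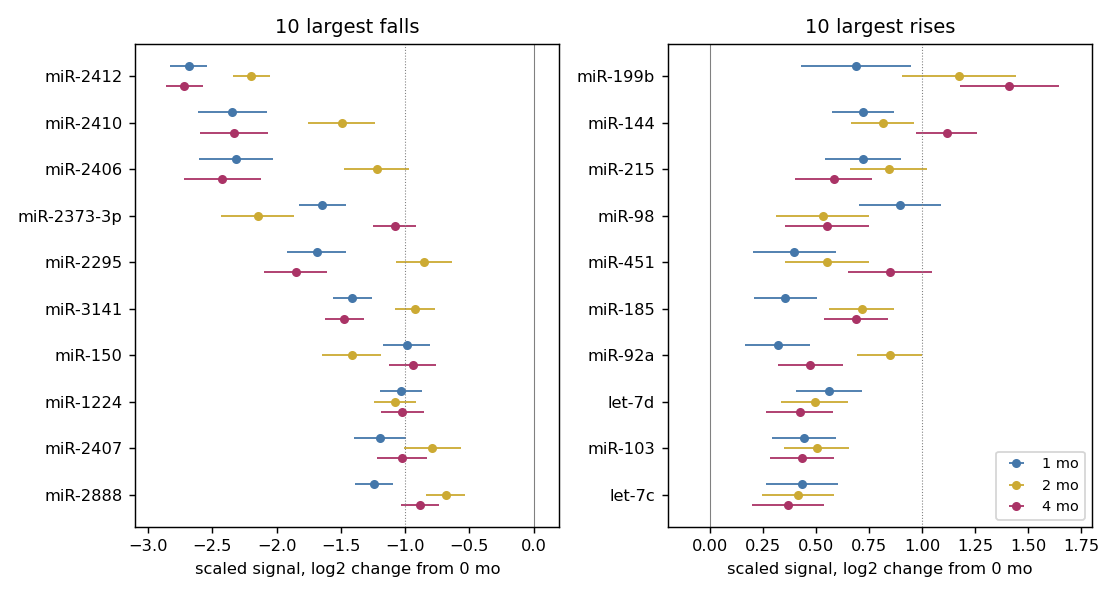
Log2 change of the scaled signal from 0 mo at 1 mo (blue), 2 mo (yellow) and 4 mo (red) for the 10 lowest and 10 highest mean changes under the rule, 1 array per month. Bars are the scanner software's error estimate of both arrays combined and the dotted line marks 2-fold. The 5 miRNAs that passed 2-fold at all 3 months are in the left panel, led by miR-2412 at -2.20 to -2.72.

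The 20 brightest miRNAs at 0 mo held 81.7% of the signal of that array, and the same 20 held 74.6%, 79.3% and 75.9% at 1, 2 and 4 mo. Of the 20 brightest of each later month, 18, 18 and 17 were among them. The share of miR-2412 changed most. It was second at 0 mo with 21.7% (1.53) and held 4.82% (0.341), 5.55% (0.392) and 4.32% (0.306) later. miR-2478 was first on all 4 arrays, with 24.05% (1.97), 27.6% (2.30), 33.8% (2.83) and 29.97% (2.49), while its scaled changes of -0.32, 0.26 and -0.07 had both signs. miR-1260b was second at 1, 2 and 4 mo with 7.14%, 9.45% and 8.06%. Probes bind with different strength, so a share is one of signal and not of molecules. The following probes are shown because these bright miRNAs moved differently from each other.
miR-2478: tggtgtcagaagtggg
miR-1260b: tggtggcagtggtg
miR-4286: ggtaccaggagtggg
miR-6528: CCTCCTTCCCTCTTC
miR-2478, miR-1260b, miR-4286 and miR-1246 resemble pieces of other small RNAs and were listed together. Together they held 35.9% of the signal at 0 mo and 40.7%, 49.3% and 43.8% later, and none of the 4 passed 2-fold. miR-1777b and miR-1777a, whose probes are mostly C, had mean changes of -0.40 and -0.53. miR-126-3p of the endothelium had changes of 0.05, -0.14 and 0.09, all within its error of 0.15, so that it moved with the percentile of the array.

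**Figure D3:**
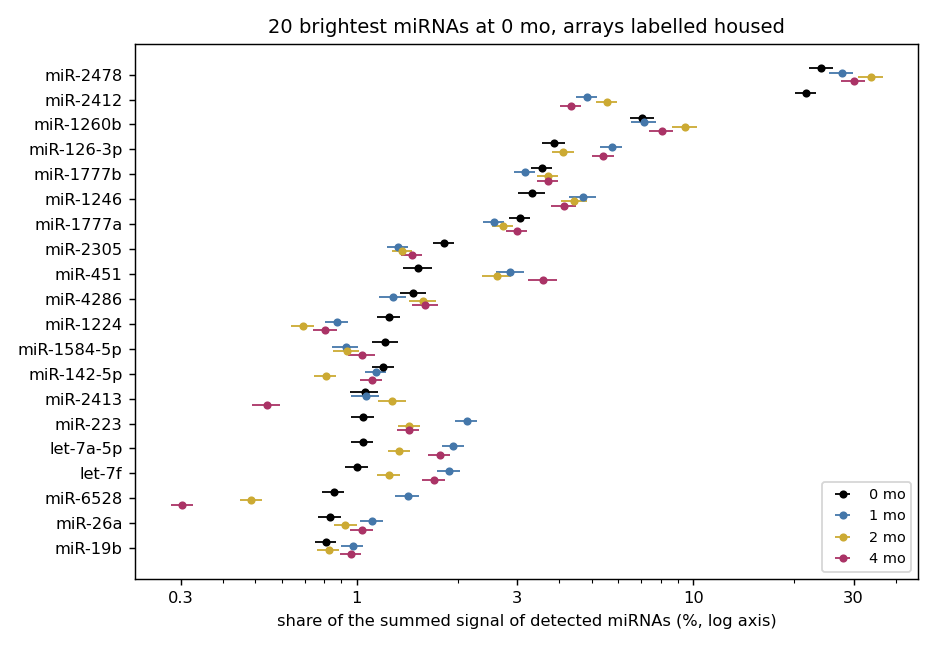
Share of the summed signal of the detected miRNAs, in percent on a log axis, for the 20 brightest miRNAs at 0 mo, at 0 mo (black), 1 mo (blue), 2 mo (yellow) and 4 mo (red). Bars are error estimates. miR-2412 lies at 21.7% at 0 mo and at 4.32% to 5.55% later, and miR-6528 ends at 0.303%.

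The detection flag was lost by 63 of the 226 miRNAs at 1 later month or more, and 33 of these were detected at 0 mo alone. No miRNA was gained (0 of those undetected at 0 mo were detected later). The 33 had signals of 5.72 to 30.2 at 0 mo, with a median of 9.29, and most were near the limit of detection. Of them, 25 were detected on none of the arrays labelled grazing either. A fall was bounded at each later month by setting the scaled signal of 0 mo against the higher of the miRNA's own scaled signal and the lowest detected one of that month, and the smallest of the 3 monthly bounds was kept. This bound was above 1 for 20 of the 33 and at least 2-fold for 3. miR-2366 read 30.2 (2.88) at 0 mo and 2.24, 1.15 and 0.160 later, which is at least 4.28-fold lower at each month. miR-2436-5p read 24.4 (2.54) and then 5.58, 2.48 and 6.94, at least 2.66-fold lower. miR-2426 read 14.6 (2.13) and then 0.797, 1.41 and 1.87, at least 2.07-fold lower. The probes of these 3 are shown since their falls are bounded.
miR-2366: ccagaCCCTCTTCTg
miR-2436-5p: cgCCCTCCCgac
miR-2426: CTTTCCCCaagcca
In these the longest run of C or T was 9, 7 and 8 bases. Over the 33 it was 6 or more in 13 (39.4%), against 21.5% of the 163 and 13.3% of the 744 miRNAs of the design. The median of the longest run was 4 in the 33 and 4 in the 163. The 33 were detected only through the 0 mo array, which had the highest summed signal, so their runs are not separate support for a relation with the falls. Counter-examples were among the 33 too, such as miR-2882, with a C and T share of 16.7%, which read 13.2 (2.08) at 0 mo and 4.56 to 5.80 later.

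The relation of the probes to the changes was described over all 163 miRNAs, with classes set after the values were seen. The mean change had a median of 0.16 for the 73 miRNAs with a longest C or T run of 3 or less, 0.01 for the 55 with 4 or 5, and -0.60 for the 35 with 6 or more. In the last class 27 were below 0 mo at all 3 months and 3 above, whereas in the first class 7 were below and 35 above. The difference between the outer classes was -0.76. A scaling by 1 factor per array shifts both medians alike and cannot change this difference. Over 16 other settings, such scalings among them, it lay between -0.53 and -0.79. The smallest was with normexp background correction and its offset. By month the median of the class with long runs was -0.69, -0.53 and -0.68. Between the later months it was 0.35 from 1 to 2 mo and -0.10 from 2 to 4 mo. Spearman's rho of the run length with the mean change was -0.50 over the 163 miRNAs, which share the same 4 arrays and are not independent.

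The GC share of the probes moved with the change as well (rho -0.46) and so did their length (0.53). Both kinds of base composition were therefore crossed. Length was not crossed, and probes with runs of 6 or more were shorter, with a median of 15 bases against 18 for runs of 3 or less. Run and length are thus not told apart here. Among the 58 miRNAs with a GC share of 60% or more, the median was -0.78 for the 20 with long runs and -0.08 for the other 38. Among the 105 with a lower GC share it was -0.33 for 15 with long runs, a thin class, and 0.13 for the other 90. On the arrays labelled grazing the same 3 classes of run length had medians of 0.16, 0.17 and -0.35, over 63, 48 and 32 miRNAs. miR-185 with a run of 7 and a mean change of 0.58, and miR-1249 with a C and T share of 6.67% and a mean change of -0.91, went against the relation. The part of base composition, of probe length and of the summed signal in these changes was not tested.

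**Figure D4:**
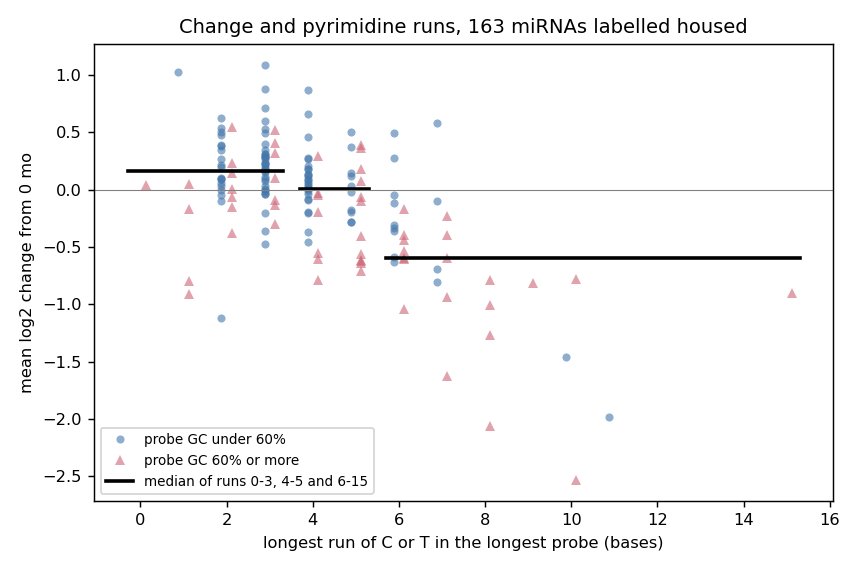
Mean log2 change from 0 mo of each of the 163 miRNAs against the longest run of C or T in its longest probe, for probes with a GC share under 60% (blue) and of 60% or more (red triangles), drawn slightly apart. Black lines are the medians of runs of 0 to 3, 4 to 5 and 6 to 15 bases, 0.16, 0.01 and -0.60.

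In lists by family and cell of origin, the counts are to be read against all 163 miRNAs, of which 57 (35%) were above 0 mo at all 3 later months and 52 (31.9%) below. These counts go by sign alone. Only 10 of the 57 and 24 of the 52 changed by more than 2 times the error at each month. All signs are those of the scaled signal: without scaling and on the control features the median of each list lay below 0, and on the summed signal 7 lists with a median below 0 had one above it. Scaled to let-7g, 6 lists with a median above 0 had one below it: the lists of miR-17-92, miR-15/16, miR-30, miR-23/27/24/26, endothelium and miR-10, miR-99, miR-100 and miR-125. With normexp 1 list turned below 0 and 3 above it, and with the brightest probe 5 turned above it. All 9 members of the let-7 family, which holds back cell growth, were above 0 mo at all 3 months, with mean changes from 0.18 for let-7g to 0.66 for miR-98 and a median of 0.29. Their share of the signal was 3.67% at 0 mo and 6.70%, 4.94% and 6.07% later. None passed 2-fold at any month, and the median was -0.34 without scaling. let-7g, which the study used as a reference, read 632 (46.9), 535 (39.4), 327 (23.99) and 563 (41.7), with scaled changes of 0.15, 0.16 and 0.24 and an error of 0.15 each. Of miR-103 and miR-107, a pair with 1 seed that acts on insulin signalling, both were above at all months, with means of 0.46 and 0.18.

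All 4 miRNAs listed for red cells were above 0 mo at all 3 months, with a median mean change of 0.59, and their share of the signal went from 1.89% to 3.57%, 3.34% and 4.45%. miR-451, which is cut by AGO2 instead of DICER, read 2399.5 (233), 2414 (233), 1634 (158) and 3264 (316). miR-486 had changes of 0.20, 0.71 and 0.66, and miR-185 0.35, 0.71 and 0.69. The medians of this list at 1, 2 and 4 mo were 0.38, 0.71 and 0.77. Without scaling the list's median was -0.04. The level of miR-144 at 4 mo was the only one of the list past 2-fold. Haemoglobin is not analysed here.

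The markers of white blood cells were not higher together. Of the lymphocyte list, 3 of the 4 detected were below 0 mo at all 3 months: miR-150, miR-155 (mean -0.28) and miR-342 (-0.37), while miR-181a had 0.11. Of these 4, only miR-150 passed 2-fold. For the myeloid and pan-leukocyte list the 3 detected members differed: miR-223 changed by 0.51, 0.22 and 0.06, miR-142-5p by -0.59, -0.80 and -0.51, and miR-21-5p had a mean of -0.02. miR-142-5p has a probe with a longest C or T run of 6. Of the 4 endothelial miRNAs, 2 were above at all months, among them miR-126-5p with a mean of 0.39, and none passed 2-fold.

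Of the 11 detected members of the miR-17-92 cluster and its paralogs, which drive cell division, 6 were above at all months and 1 below, with means from -0.20 for miR-19b to 0.55 for miR-92a. The miR-30 family had 3 of 6 above and the group of miR-10, miR-99, miR-100 and miR-125 had 2 of 6, with 0 below in either. In the miR-15/16 family, 2 of 7 were above and 0 below, and the median was 0.08. In the group of miR-23, miR-27, miR-24 and miR-26, 4 of 7 were above and 2 below. Of the miR-29 family, which targets collagen mRNAs, 3 were detected, of which 2 were below at all months, with means from -0.46 for miR-29a to -0.01 for miR-29c. miR-130b (-0.80) and miR-301a (0.87), which share a seed, had opposite means, and the probe of miR-130b has a longest C or T run of 7.

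Of the liver and fat list, 2 of 6 were above and 2 below. Among those above, miR-148a changed by 0.01 at each month, with errors of 0.15 to 0.16. miR-122 read 11.8 (2.07), 10.2 (2.16), 7.51 (2.07) and 8.68 (2.09), near the limit of detection, and its changes lay within their errors. miR-192 (mean 0.53) and miR-194 (-0.36), which are made from 1 transcript, differed in sign. The Drosha-independent miR-320a and miR-484 had means of -0.23 and 0.01. For the muscle list, 0 of 7 were detected on all 4 arrays. miR-133b carried the detection flag at 0 and 1 mo with 5.15 (1.91) and 6.51 (2.07), and read 1.94 and 2.22 later. The signals of the other 6 were at most 2.51 times their errors.

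The list of miRNAs first described from cattle, a run of consecutive miRBase numbers, had 24 of its 286 entries detected on all 4 arrays. Of these, 16 were below 0 mo at all 3 months and 1 above, with a median mean change of -0.60 (-0.06 with normexp), and 4 of the 5 miRNAs that had fallen at all months belong to it. Their share of the signal was 50.3% at 0 mo and 36.3%, 43.3% and 37.7% later, most of it miR-2478 and miR-2412. Within the list the long C or T runs were again found with the low values. The median was -0.80 for the 14 with a run of 6 or more, of which 13 were below at all months, and -0.05 for the other 10, of which 3 were. Among the miRNAs of other numbers it was -0.36 for 21 with long runs and 0.10 for 118 without.

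**Figure D5:**
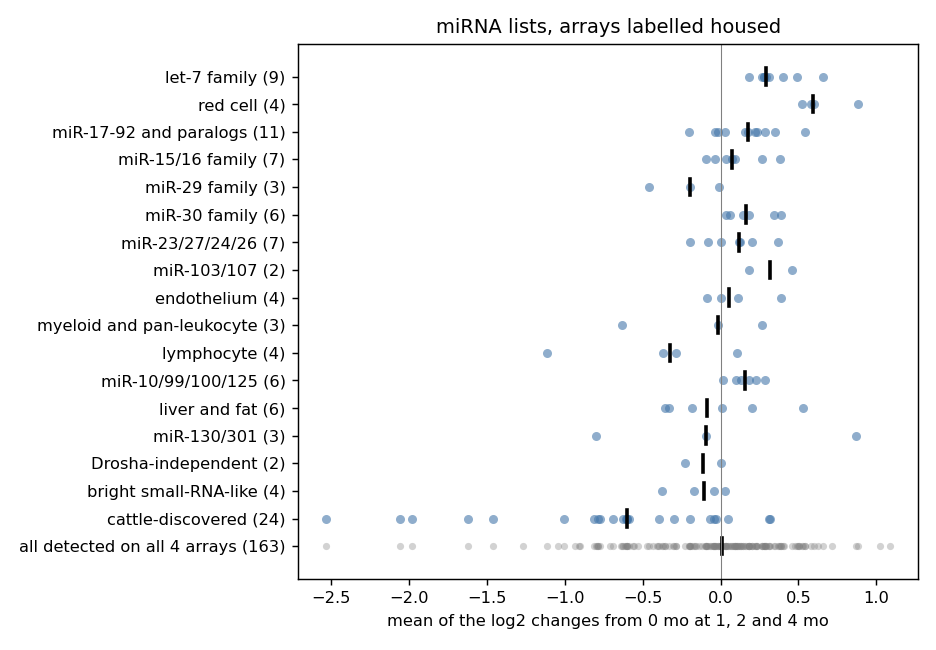
Mean of the log2 changes from 0 mo at 1, 2 and 4 mo for each member (points) of the miRNA lists, with the median of each list (black bar) and the number of members detected on all 4 arrays in brackets. All 9 let-7 and all 4 red cell points lie above 0 (the medians of both lists are below 0 without scaling or on the control features), and the cattle-discovered list reaches from -2.53 to 0.32.

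Of the 20 miRNAs that the study went on to measure by qRT-PCR, 3 had passed 2-fold at 1 month or more by lower signals, miR-150, miR-1249 and miR-2888, and 1 by a higher signal, miR-144, against 9.82% lower and 3.68% higher of the 163. miR-1249 read 36.9 (3.22), 15.3 (2.28), 9.57 (2.10) and 13.9 (2.22). The other means lay between -0.28 for miR-361 and miR-155 and 0.60 for miR-451. miR-489 had both signs, with changes of -0.38, -0.15 and 0.81. miR-148a changed by 0.01 at each month. The study chose these miRNAs on these arrays, so their changes are not independent evidence.

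The test that the design allows asks whether the mean change at the later months differed between the labels, and it was made with limma over the 143 miRNAs detected on all 8 arrays. For 0 of the 143 was the adjusted p under 0.05, and 8 had an unadjusted p under 0.05. The largest differences, labelled grazing minus labelled housed, were 2.31 for miR-2406 (standard error 0.54) and 2.21 for miR-2412 (0.53), each with an adjusted p of 0.0555 from limma. When low signals were raised to a common floor of 0.114 on the scaled signal, which touched 5 miRNAs, both had an adjusted p of 0.0392 from limma. Their own lowest scaled signals, 0.139 for miR-2406 and 42.5 for miR-2412, lay above that floor. The call thus turned on a floor that changed only other miRNAs. Across settings the adjusted p from limma for miR-2406 ranged from 0.000766 to 0.988, and that for miR-2412 from 3.5e-05 to 0.707. On the arrays labelled grazing the mean changes of these miRNAs were 0.33 and -0.33. For miR-150 the mean changes were -1.12 labelled housed and -0.02 labelled grazing, with an adjusted p of 0.301 for the difference, and for miR-144 they were 0.88 and -0.21, with 0.415, both from limma. Each p rests on 2 residual degrees of freedom of the miRNA itself and 13 that limma takes from the spread over all the miRNAs. The fit passes exactly through both 0 mo arrays, so the spread comes from the later months alone. The error of the single 0 mo arrays, on which every difference depends, is not measured. A p above the threshold here does not show that the labels changed alike, since the spread comes from the months of single pools.

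Levels on the 8 arrays show where the start of the arrays labelled housed stood. For 8 of the 10 miRNAs of the first set, the scaled signal was higher on the array labelled housed 0 mo than on each of the other 7 arrays. The exceptions were miR-1224 and miR-2407. The choice of the set fixes this against the 3 later arrays labelled housed. Of all 47 miRNAs below 0 mo at the 3 later months and detected on the 8 arrays, 18 (38.3%) were highest there, and of the 143 detected on the 8 arrays, the same number (12.6%). For miR-2412 it was 313 there, against 42.5 to 131 on the other 7. For miR-150 it was 0.968, against 0.721 to 0.847 on the arrays labelled grazing and 0.363 at its lowest, on an array labelled housed. In the second set, only miR-92a had its lowest value of 8 on that array, at 2.05 against 2.55 to 4.00. For miR-144 the value of 1.78 at 0 mo was the fourth highest of 8, and those of the arrays labelled grazing lay between 0.934 and 1.62. Of the 49 miRNAs above 0 mo at the 3 later months and detected on the 8 arrays, 4 (8.16%) had their lowest value on that array.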

How the data were processed

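Plasma exosomal RNA was hybridized by the authors to 1-colour Agilent arrays for miRBase 19 miRNAs and read with Feature Extraction (version 10.7.3.1, Agilent). The deposited intensity values are background-subtracted and not normalized between arrays, and 40 spots per miRNA are summed into 1 signal. The authors also deposited a series table of a ratio, each signal over 1 factor per array, with the set of miRNAs behind that factor unknown. It was used as an alternative, and 0 of its columns were left out. The number of arrays limits the precision.

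Signals were divided by the 90th percentile of their array, taken to log2 and set against 0 mo. miRNAs were named by the rule of largest changes, the 20 brightest at 0 mo, the qRT-PCR set and members of 18 lists. The members and lists were chosen with earlier results of these data known. limma 3.58.1 in R 4.3.3 tested the difference between labels with month and label as terms and Benjamini-Hochberg adjustment. There were 2 residual degrees of freedom per miRNA and 13 prior ones from the spread over all the miRNAs. On simulated data for 143 miRNAs, 20 were changed by 2 on the log2 scale, and 100% were recovered with 1 false call. The simulated noise SD was 0.2 for every miRNA. In the main fit of the data, differences of 2.31 and 2.21 were not called. The simulation therefore does not give the power of the test here. The alternatives were other scalings, signals, detection rules, filters and folds, and leaving out each later month. Scaling to the dmr control features and a floor on low signals were added after the data were seen. Coordinates are those of the array design on UMD_3.1. Mature miRNA sequences are not used here. The other numbers came from scipy 1.17.1, pandas 2.3.3 and numpy 2.4.6 under Python 3.11.15.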

Additional observations from a re-analysis of the deposited data

Results flagged for a closer look

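In 6 of 48 described miRNAs that were detected on all 8 arrays, the change from 0 mo had 1 sign at all later months on the arrays labelled housed and the opposite sign at all later months on those labelled grazing. Over all 143 miRNAs detected on the 8 arrays this was so for 14 (9.79%). The sign pattern itself was not tested. The difference of the mean changes was tested with limma, and the adjusted p is given for each. For miR-2406 the mean change was -1.99 labelled housed and 0.33 labelled grazing (adjusted p 0.0555). For miR-142-5p it was -0.63 and 0.49 (adjusted p 0.301), and for miR-26a -0.083 and 0.16 (adjusted p 0.962). The values were -0.20 and 0.45 for miR-19b, -0.20 and 0.47 for miR-29b, and -0.28 and 0.45 for miR-361, with an adjusted p of 0.791 each. On the arrays labelled housed, miR-26a changed by -0.10, -0.08 and -0.08, within its error of 0.16, so its sign is not secure. The changes of miR-19b and miR-29b there were under 2 times their errors at each month. For miR-361 only that at 4 mo was over (-0.322, error 0.160). Which of the 2 labels is the grazing group reverses when the arrays are named by the columns of S1 Table.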

How the results depend on the processing

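The numbers of fallen and risen miRNAs turned on the scaling, the signal and the threshold. The number that had fallen at all 3 months, 5 in the report, was 8 when scaled to let-7g, 2 to the summed signal, 3 by quantiles, 19 without scaling, 28 on the control features, 3 with the mean processed spot signal, 1 with normexp, 3 with the brightest probe, 3 with the stricter spot filter, 2 with signals above 30, 17 at a fold of 1.5 and 11 with miRNAs detected on at least 1 array. Leaving out a later month gave 5 to 8, the highest without 2 mo. The number risen at all 3 months, 0 in the report, was 3 on the summed signal and 4 at a fold of 1.5, and 0 to 1 when a month was left out.

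Fallen miRNAs at 1, 2 and 4 mo, in that order, numbered 21, 11 and 18 with let-7g, 5, 4 and 6 with the summed signal, 31, 105 and 23 without scaling, 38, 115 and 35 on the control features, 4, 4 and 5 with normexp, 5, 3 and 5 with signals above 30, 34, 28 and 23 at a fold of 1.5, and 26, 19 and 26 with miRNAs detected on at least 1 array. At 1 mo there were 19 with the 75th percentile. At 2 mo there were 4 with quantiles, 11 with the series table and 4 with the brightest probe.

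Risen miRNAs in the same order numbered 16, 7 and 13 with the summed signal, 0, 0 and 1 without scaling, 0, 0 and 0 on the control features, 0, 0 and 0 with normexp, 0, 0 and 1 with signals above 30, and 12, 13 and 13 at a fold of 1.5. With let-7g there was 1 at 2 mo and 1 at 4 mo, with quantiles 5 at 1 mo, with the brightest probe 5 at 2 mo, and with the stricter spot filter 0 at 1 mo and 1 at 2 mo. The median change was 0.55, 0.21 and 0.43 with the summed signal, -0.36, -1.13 and -0.37 without scaling, -0.52, -1.22 and -0.58 on the control features, and -0.20 at 4 mo with let-7g. A scaling adds the same amount to every change of an array, except for quantiles. The normexp setting includes an offset of 50 for every spot, which draws the changes of dim miRNAs towards 0. For the other settings the cause was not tested.

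The limma comparison of the labels, with 0 calls in the report, gave 2 with the brightest probe, 2 with the stricter spot filter, 1 with signals above 30 and 2 with the floor, and 0 under 13 other settings. The control features and the floor were chosen after seeing the data. No paired analysis of animals was possible, because each label had 1 pooled array per month. The labels were matched by month through the month term of the limma fit. With 1 pool of 3 steers per array, the spread between animals is not known, and signals near 4 lie at the limit of detection.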
